A study of Mus musculus with 115 samples.

Results

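The comparison was between 2 libraries labelled BANP_dTAG and 2 libraries labelled BANP_DMSO, 4 of the 115 libraries of the study, chosen by these labels. All 4 measured the construct CTCF_tile5_BANP, which carries a BANP motif in a sequence named for CTCF at tile 5. The construct sat at a recombinase-mediated cassette exchange locus of mouse embryonic stem cells, whose strain is given as 129S6/SvEvTac. The same construct in 3 libraries of the pool tiles_pool10 gave a further level, for which the labels name no treatment. The labels name no genotype, tag, dose or duration for the dTAG and DMSO groups, and nothing in them says whether the 2 libraries of a group were separate cultures. Any p-value therefore measures the spread between these libraries, which may be technical. Levels of BANP protein were not analysed here, so how much BANP was left in either dTAG library is unknown.

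BANP is a DNA-binding protein that recognises a CGCG-containing element, found mainly in CpG island promoters of broadly used genes, and its binding there is known to go with open chromatin. It binds the element when its CpGs are unmethylated. dTAG compounds are small molecules that join a protein carrying an FKBP12-derived tag to a ubiquitin ligase, so that the tagged protein is degraded, and DMSO is the solvent they are given in. In NOMe-seq a GpC methyltransferase acts on chromatin before bisulfite conversion. A GCH cytosine, where H is any base but G, reads as methylated where the enzyme could reach it, so an accessible stretch reads high, and a stretch covered by a nucleosome or a bound protein reads low.

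The deposited files gave 22 GCH sites per BANP library, each as the share of reads methylated, with 0 missing values. All 172 values of these 4 libraries, at both kinds of site described here, were written with at most 1 decimal, so a site could stand only at a multiple of 10%. A single value may thus be off by up to 5 percentage points, and a difference between group means by up to 10. The files give no read counts, so depth is unknown. The 105 values of the construct in tiles_pool10 were not rounded in this way. Sites were grouped by position along the amplicon into the motif window (28 bp, ending at position 240), the flanks (within 40 bp on each side), a low stretch (14 to 37) and the remaining far sites.

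**Figure D1:**
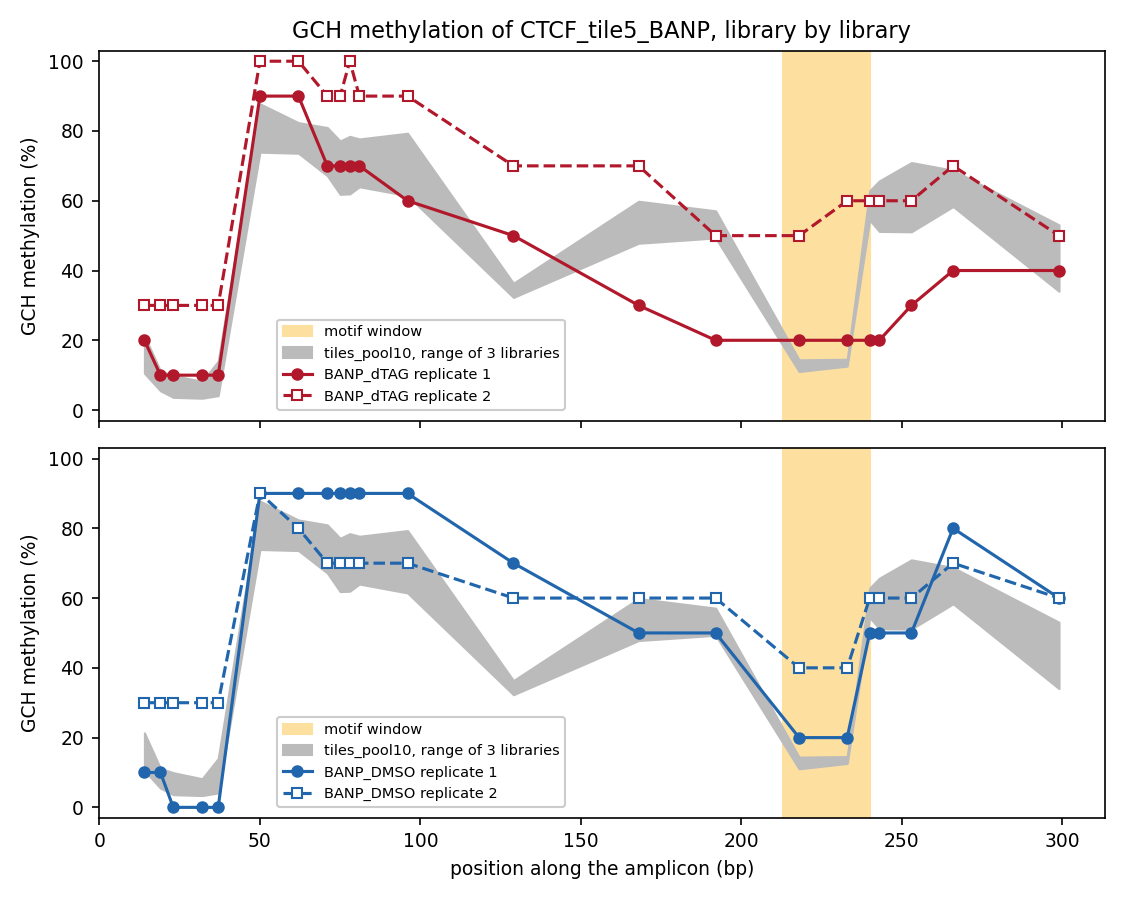
GCH methylation (%) of CTCF_tile5_BANP against position along the amplicon, with the BANP_dTAG libraries in the upper panel and the BANP_DMSO libraries in the lower one. The grey band spans the 3 tiles_pool10 libraries and the yellow band marks the motif window; BANP_dTAG replicate 1 was at 20% on both sides of the window, at positions 192 and 243, while BANP_dTAG replicate 2 was at 50% to 60% there.

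The libraries of one group did not share a profile. BANP_dTAG replicate 2 was higher than BANP_dTAG replicate 1 at 22 of 22 sites, by 10 to 40 percentage points (median 20). Between the DMSO libraries, replicate 2 was higher at 12 sites, lower at 8 and equal at 2, with differences from −20 to 30 percentage points. At 20 of 22 sites the gap between the 2 dTAG libraries was wider than the gap between the group means.

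The low stretch set both libraries numbered 2 apart from both numbered 1. It had the lowest mean of all regions in each of the 4 libraries and in all 3 of tiles_pool10. Over its 5 sites, methylation was 12.0% in dTAG replicate 1 and 30% in dTAG replicate 2, against 4.0% in DMSO replicate 1 and 30% in DMSO replicate 2. The tiles_pool10 libraries had 7.04%, 9.29% and 12.8%. Levels in both libraries numbered 2 were thus above those of every tiles_pool10 library, whether with dTAG or DMSO. Among the 30 other libraries with constructs on the CTCF backbone, the mean of this stretch ran from 2.0% to 35.0% with a median of 10.2%, and 1 library stood at or above 30%. Those library means average 1 to 11 constructs, while each BANP library holds 1. Taken construct by construct, 5 of 145 profiles in these other libraries stood at or above 30%, the highest at 43.6%. The part of the low stretch in the results for the other regions was not tested. The values of each library are given apart throughout.

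On the flanks of the motif, 1 of the 2 dTAG libraries was far below both DMSO libraries and the other was not. At position 243, just after the window, methylation was 20% and 60% in dTAG replicates 1 and 2, against 50% and 60% in DMSO replicates 1 and 2. At position 192, the only site of the left flank, it was 20% and 50% with dTAG, against 50% and 60% with DMSO. The replicate 1 dTAG value lay 30 percentage points under the lower DMSO value at both sites, while the replicate 2 dTAG value touched the DMSO range.

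Further out on the right flank the order was alike. Position 253 had 30% and 60% with dTAG, against 50% and 60% with DMSO. Position 266 had 40% and 70% with dTAG, against 80% and 70% with DMSO. At all 4 flank sites dTAG replicate 1 was below both DMSO libraries, and dTAG replicate 2 was below both at none of them. The group ranges therefore met or overlapped at every flank site.

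As a mean over the 4 flank sites, methylation was 27.5% and 60% in the dTAG libraries, against 57.5% and 62.5% in the DMSO libraries. The means were 43.75% ± 22.98 with dTAG and 60% ± 3.54 with DMSO (SD, n = 2 each), a difference of −16.3 percentage points that was smaller than the spread between the dTAG libraries. The exact permutation test, two-sided, gave p = 0.667, and 2 libraries against 2 cannot reach a p below 0.33. Without dTAG replicate 1 the difference was 0 percentage points, and without dTAG replicate 2 it was −32.5. Between the libraries numbered 1 alone it was −30 percentage points, and between those numbered 2, which had the raised low stretch, it was −2.5. The left flank alone differed by −20 percentage points (exact permutation p = 0.667), and by −35 to −5 with 1 library left out. The right flank differed by −15.0 percentage points (exact permutation p = 1), and by −31.7 to 1.67 with 1 library left out, so that its direction rests on dTAG replicate 1.

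Inside the window, positions 218 and 233 were lower than the flanks in both DMSO libraries and in all 3 libraries of tiles_pool10. At position 218 methylation was 20% and 50% with dTAG, against 20% and 40% with DMSO. Position 233 had 20% and 60% with dTAG, against 20% and 40% with DMSO. Both libraries numbered 1 stood at 20% at these sites, and dTAG replicate 2 was the highest of the 4.

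Position 240, the last of the window, resembled the flank. It had 20% and 60% with dTAG, against 50% and 60% with DMSO, the same values as at position 243. In DMSO replicate 1 the level thus stepped up by 30 percentage points between positions 233 and 240, and in DMSO replicate 2 by 20. In both dTAG libraries the step was 0, with both sites at 20% in replicate 1 and at 60% in replicate 2. The 3 tiles_pool10 libraries stepped up by 45.3, 41.9 and 48.3 percentage points between the same sites. This step was not among the planned comparisons and was not tested. In the BANP libraries, rounding may put each step off by up to 10 percentage points.

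Averaged over its 3 sites, the window was 20% and 56.7% methylated in the dTAG libraries, against 30% and 46.7% in the DMSO libraries. The group means were both 38.3%, with an SD of 25.9 for dTAG and 11.8 for DMSO (n = 2 each, exact permutation p = 1). The dTAG libraries nevertheless lay apart, replicate 1 as the lowest of the 4 and replicate 2 as the highest. Between the libraries numbered 1 the difference was −10 percentage points, and between those numbered 2 it was 10. With position 240 left out, a choice made after seeing the data, the difference was 7.5 percentage points.

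**Figure D2:**
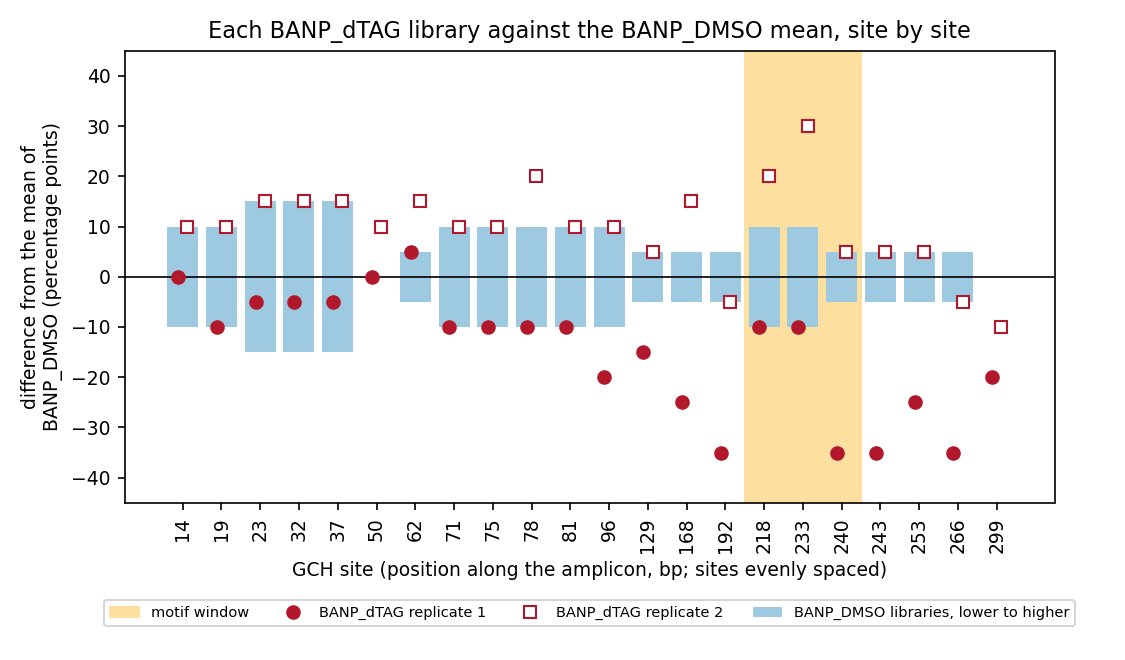
Difference of each BANP_dTAG library from the mean of the BANP_DMSO libraries (percentage points) at each GCH site, with blue bars spanning the 2 BANP_DMSO libraries. Replicate 1 lay below the bar by the widest margin at positions 192, 240, 243 and 266, at −35 percentage points from the mean, and replicate 2 was at 20 and 30 percentage points above it at positions 218 and 233.

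Away from the motif, dTAG replicate 2 was again the higher dTAG library. Position 50, the nearest far site to the low stretch, had 90% and 100% with dTAG, against 90% in both DMSO libraries. Position 62 had 90% and 100% with dTAG, against 90% and 80% with DMSO. Both sites were at, or level with, the highest value of the amplicon in each library but DMSO replicate 2, where position 62 came after position 50. Here dTAG replicate 1 was not below the DMSO libraries.

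From position 71 to 96 the DMSO libraries themselves split. At positions 71, 75 and 81 methylation was 70% and 90% with dTAG, against 90% and 70% with DMSO. Position 78 had 70% and 100% with dTAG, and position 96 had 60% and 90%, against 90% and 70% with DMSO at both. Replicate 1 was the lower library with dTAG and the higher one with DMSO. Over the 7 sites from 50 to 96 the levels were 74.3% and 94.3% in the dTAG libraries, against 90% and 74.3% in the DMSO libraries, so that the means of 84.3% and 82.1% differed by less than either spread.

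Nearer the motif, dTAG replicate 1 was below both DMSO libraries again. Position 129 had 50% and 70% with dTAG, against 70% and 60% with DMSO. Position 168, 45 bp before the window, had 30% and 70% with dTAG, against 50% and 60% with DMSO. Beyond the right flank, position 299 had 40% and 50% with dTAG, against 60% in both DMSO libraries. It was the only site where the groups did not overlap, 1 of 22 or 4.55%, and with dTAG lower. Its gap of 10 percentage points between the nearest libraries is the step of the written values.

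Over the 10 far sites the levels were 64% and 85% with dTAG, against 81% and 70% with DMSO, and the means of 74.5% ± 14.8 and 75.5% ± 7.78 (SD, n = 2 each) differed by −1.0 percentage point (exact permutation p = 1). That small difference rests on libraries of opposite order, since it was −17 percentage points between the libraries numbered 1 and 15 between those numbered 2. Over all 22 sites the levels were 39.5% and 64.1% with dTAG, against 52.3% and 56.4% with DMSO, a difference of −2.5 percentage points (exact permutation p = 1).

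**Figure D3:**
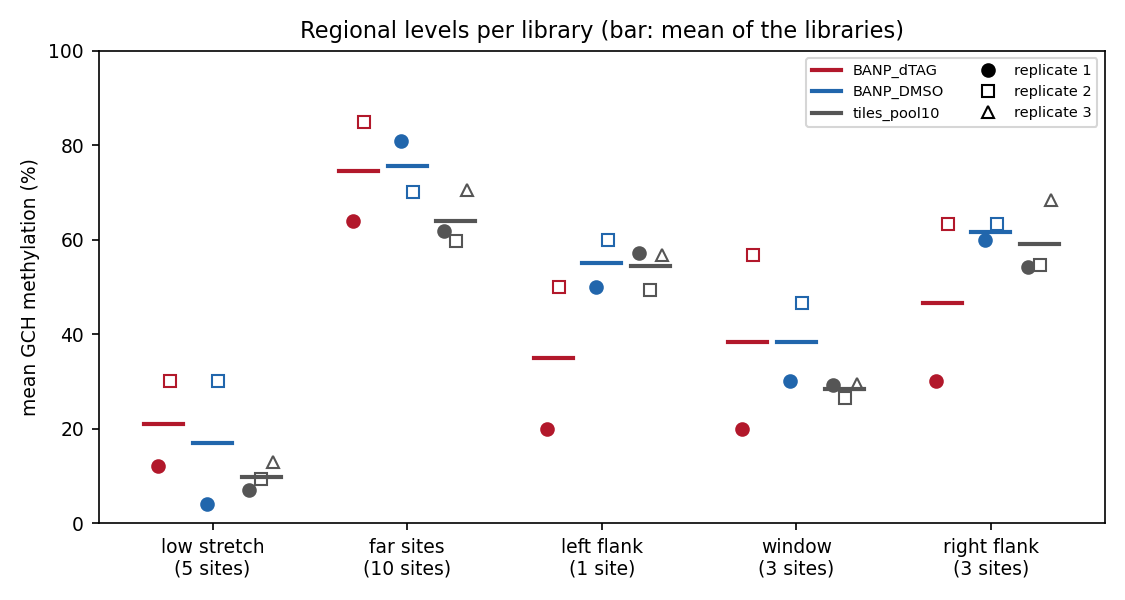
Mean GCH methylation (%) of each region in each library of BANP_dTAG, BANP_DMSO and tiles_pool10, with a bar at the mean of the libraries. In every region but the low stretch the BANP_dTAG libraries lay further apart than the BANP_DMSO libraries, and their levels on the left flank were 20% and 50%.

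Site by site, limma's moderated test found 0 of 22 GCH sites past an adjusted p of 0.05, a background of 0%, and 0 at an unadjusted p under 0.05. Group means were lower with dTAG at 9 sites, higher at 9 and equal at 4, with differences from −20 to 10 percentage points. The test was run on M-values, log2((f + 0.01)/(1 − f + 0.01)) of the fraction f, and gave each site the same standard error of 1.68. At positions 192 and 266, where the mean lay furthest below DMSO, the difference was −1.26 on this log2 scale, with a 95% interval from −4.64 to 2.12 (limma adjusted p = 1). This interval spans large differences in both directions, so the test does not show that the groups were alike. Its standard error pools all 22 sites of the same libraries as though they were independent, so the interval may be too narrow.

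A contrast within each library, the mean of the flanks minus the mean of the far sites, is not moved by an equal shift of a whole library. It was −36.5 and −25.0 percentage points in the dTAG libraries, against −23.5 and −7.5 in the DMSO libraries. Flanks were thus lower relative to the far sites in both dTAG libraries than in either DMSO library. The nearest libraries differed by less than the rounding allows, however. The flanks themselves were below both DMSO libraries only in dTAG replicate 1, at 27.5%. In dTAG replicate 2 they were at 60%, between the DMSO libraries at 57.5% and 62.5%. The far sites of dTAG replicate 2, at 85%, were above the 81% and 70% of the DMSO libraries. The contrast means of −30.8 ± 8.13 and −15.5 ± 11.3 (SD, n = 2 each) differed by −15.3 percentage points. The exact permutation test, two-sided, gave p = 0.33, the smallest p that this design can give. The difference was negative each time 1 library was left out, from −23.3 to −7.25 percentage points. With flanks of 20 bp, which hold no site on the left and leave positions 192 and 266 among the far sites, it was −8.33 percentage points. With flanks of 60 bp it was −15.4. In tiles_pool10 the contrast was −6.93, −6.44 and −5.0 percentage points, and all 4 BANP libraries were below these values, with exact permutation p = 0.2 for dTAG and for DMSO. DMSO replicate 2, at −7.5, was below them by less than the rounding allows.

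Set against tiles_pool10, the DMSO libraries had overlapping flank levels and higher means over the amplicon as a whole. The flanks were 57.5% and 62.5% with DMSO, against 54.9%, 53.2% and 65.5% in tiles_pool10 (exact permutation p = 0.8). The window was 30% and 46.7% with DMSO, against 29.3%, 26.5% and 29.5% in tiles_pool10, so that both DMSO libraries were higher, replicate 1 by less than the rounding allows. This gave p = 0.2 in the exact permutation test, the smallest for 2 libraries against 3. Over all 22 sites the levels were 52.3% and 56.4% with DMSO, against 43.7%, 42.5% and 50.9% in tiles_pool10 (exact permutation p = 0.2). Here too DMSO replicate 1 was above the highest tiles_pool10 library by less than the rounding allows. The far sites differed by 11.5 percentage points (exact permutation p = 0.4), against 9.90 for the window. At position 129 the libraries were furthest apart, with 70% and 60% with DMSO, against 36.4%, 33.8% and 32.3% in tiles_pool10. Limma called 0 of 22 sites (0%) between DMSO and tiles_pool10, with 0 at an unadjusted p under 0.05 on M-values. On untransformed fractions it again called 0 sites, and only position 129 was at an unadjusted p under 0.05, higher with DMSO.

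On the flanks, dTAG replicate 1 was below all 3 tiles_pool10 libraries and dTAG replicate 2 was within their range. The dTAG libraries had 27.5% and 60%, against 54.9%, 53.2% and 65.5% in tiles_pool10 (exact permutation p = 0.6). At positions 218 and 233 together they had 20% and 55.0%, against 14.3%, 12.4% and 12.8% in tiles_pool10. Both dTAG libraries were above all 3 there, as were the DMSO libraries with 20% and 40%. Limma called 0 of 22 sites (0%) between dTAG and tiles_pool10, with 3 at an unadjusted p under 0.05, the positions 50, 62 and 78 that were written as 100% in dTAG replicate 2. Which sites stood out depended on the scale. On untransformed fractions limma also called 0 sites. The 3 at an unadjusted p under 0.05 were positions 129, 218 and 233 instead, all higher with dTAG. With DMSO these 3 sites were above tiles_pool10 too, by 30.9, 17.4 and 16.2 percentage points, against 25.9, 22.4 and 26.2 with dTAG. On the M-value scale, positions 50, 62 and 78 were called as higher with dTAG when either DMSO library was left out, and positions 218 and 233 besides, 5 in all, when dTAG replicate 1 was left out. That last fit holds 1 dTAG library, whose spread is assumed to be that of the DMSO and tiles_pool10 libraries, so it is no replicated test of dTAG. Leaving out a DMSO library kept the differences at positions 50, 62 and 78 at 14.1, 17.1 and 16.5 percentage points. The spread estimated from all groups changed instead. The DMSO means were also above tiles_pool10 at these sites, by 9.06, 7.09 and 11.5 percentage points. No site was called as lower in any of these fits.

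A second set of files, named CGH, gave 21 positions for each of the 4 libraries. The labels do not define this name. In 14 cases the position lay 1 base before a GCH site, and all 56 values at these positions equalled those of the GCH site in the same library. They are thus not a second measurement. The other 7 positions each lay 1 base before a GCH site that was given for the construct in tiles_pool10, and they added sites to the profile. Whether the other 7 report CpG methylation cannot be told from the labels, and these libraries give no GCH value there to compare.

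Of those 7, position 199 on the left flank had 30% and 60% with dTAG, against 50% and 60% with DMSO. Position 223 in the window had 20% and 60% with dTAG, against 20% and 40% with DMSO. Both followed their neighbours at 192 and 218, with dTAG replicate 1 low on the flank and dTAG replicate 2 high in the window. Upstream, position 93 had 70% and 90% with dTAG, against 90% and 80% with DMSO. Position 118 had 60% and 80% with dTAG, against 80% and 70% with DMSO, and position 126 had 60% and 80%, against 70% in both. Positions 29 and 319, the outermost of these 7, showed no gap between the group means, with 10% and 30% in either group at position 29. Position 319 had 60% and 50% with dTAG, against 50% and 60% with DMSO. Limma called 0 of 21 CGH positions (0%), with 0 at an unadjusted p under 0.05, and the groups overlapped at all 21.

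**Figure D4:**
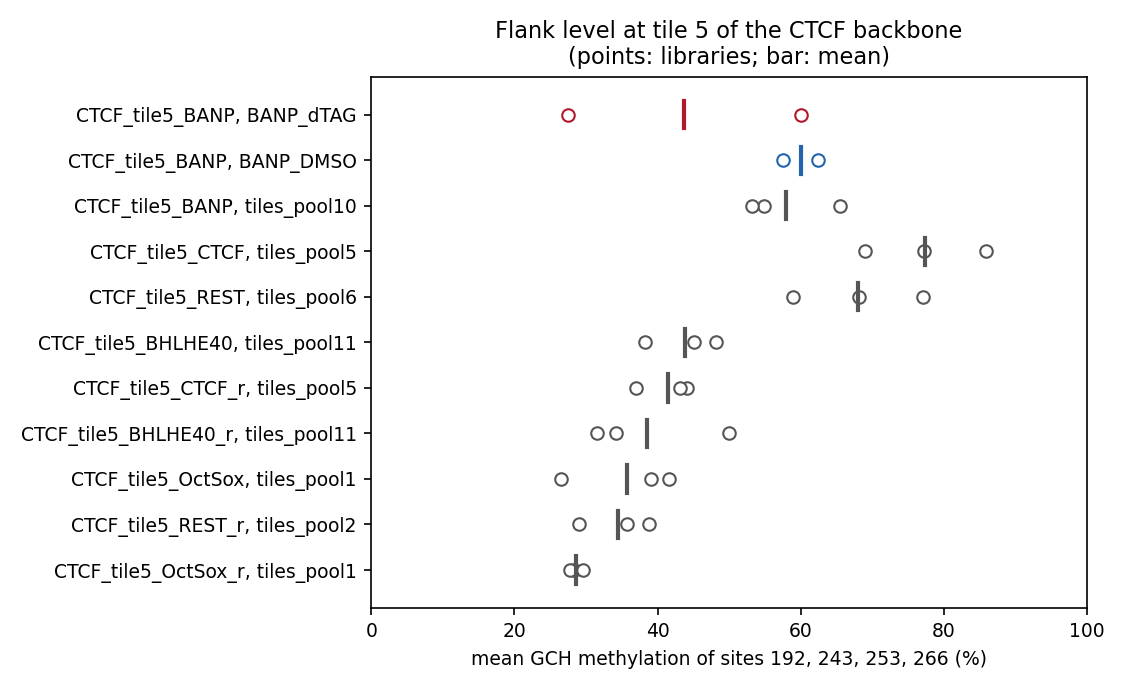
Mean GCH methylation (%) of the flank sites 192, 243, 253 and 266 in each library (points, with a bar at the mean) for CTCF_tile5_BANP in BANP_dTAG, BANP_DMSO and tiles_pool10, and for the other constructs at the same tile of the CTCF backbone. The BANP_dTAG libraries, at 27.5% and 60%, lie with the 6 constructs of lower level and with the BANP_DMSO libraries, 1 in each range.

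The flank sites were shared with 8 other constructs at the same tile of the CTCF backbone, which give the level of these sites with other motifs. CTCF, the insulator protein, had flanks of 77.4% ± 8.46 and REST, a repressor of neuronal genes, of 68.1% ± 9.08 (SD, n = 3 each). For the remaining 6 constructs (OctSox, BHLHE40 and 4 with the undefined ending "_r") the means ran from 28.6% to 43.8% and the single libraries from 26.5% to 49.9%. The 27.5% of dTAG replicate 1 was inside this range. The 60% of dTAG replicate 2 was above it, as were both DMSO libraries and all 3 libraries of tiles_pool10. These constructs were in other pools and no test was made.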

How the data were processed

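Amplicon NOMe-seq measured CTCF_tile5_BANP in 2 BANP_dTAG, 2 BANP_DMSO and 3 tiles_pool10 libraries. The authors deposited a fraction per position, without counts. The submitters' processing notes name Trimmomatic 0.32, a read trimmer, and DNA was bisulfite converted, per the labels' protocols. The aligner, the caller, the genome build and any filter on coverage are not given in the sources used here, so positions are those of the amplicon. Without counts, depth and its precision are unknown. Every site of the construct in the BANP libraries is reported, and none of these was filtered. The tiles_pool10 libraries had 35 GCH sites of the construct. Only the 22 that the BANP libraries also had entered the tiles_pool10 levels and tests, and values at the others are not reported.

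Sites were tested on M-values (offset 0.01) with limma 3.58.1 in R 4.3.3, adjusted by Benjamini-Hochberg over all sites, with tiles_pool10 in a fit of 3 groups. Region means were compared by exact permutation in scipy 1.17.1. The limma script was tested on simulated data, with noise drawn apart for each site. That test does not cover libraries that shift as a whole. Alternatives were the offset, untransformed fractions, centring, a replicate block, flank width, medians and left-out libraries. Rounding tiles_pool10 to 1 decimal, the block against tiles_pool10, the window without position 240 and leaving out both libraries of 1 number were chosen after seeing the data. The step between positions 233 and 240 was not planned either. The members, regions and lists were chosen with earlier results of these data known.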

Additional observations from a re-analysis of the deposited data

How the results depend on the processing

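Between dTAG and DMSO, 0 GCH sites and 0 CGH positions were called under every alternative run. This says little about stability, since the spread between libraries was wide. As 14 of the 21 CGH positions repeat GCH values, the CGH results of this section are not independent of the GCH ones. Against tiles_pool10, leaving out 1 library gave 0 to 5 called sites for dTAG and 0 for DMSO; the 5 come from a fit with 1 dTAG library, assumed to vary like the other groups. Leaving out libraries moved the flank difference between −32.5 and 0 percentage points, the window between −18.3 and 18.3, the low stretch between −9 and 17, the far sites between −17 and 15, and the amplicon between −14.8 and 9.77. Leaving out both libraries numbered 2 gave the lower end for the far sites, and both numbered 1 the upper end.

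At single GCH sites the sign turned when 1 library was left out, with a range from −5 to 15 at position 14, −10 to 20 at 23, 32, 37, 78 and 218, −20 to 10 at 96, −15 to 5 at 129, −25 to 15 at 168, −10 to 30 at 233, −35 to 5 at 240 and 243, and −25 to 5 at 253. Among CGH positions it ran from −15 to 5 at 93 and 118, −25 to 5 at 199 and −10 to 30 at 223. Centred on the library median, positions 96, 129 and 168 and CGH positions 93 and 118 turned to 5 percentage points. The cause was not tested. With 1 library left out each time, the difference was negative throughout at positions 192, 266 and 299, positive throughout at position 62 (5 to 15) and 0 to 10 at position 50.

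With a replicate block, 0 GCH sites and 0 CGH positions were called between dTAG and DMSO, and 0 against tiles_pool10. Across sites, the gap between replicates with dTAG had a correlation with that gap with DMSO of 0.103 over GCH sites. Over CGH positions it was 0.276, and without the low stretch the values were 0.503 and 0.484. A correlation leaves out the mean gap, so it does not say that same-numbered libraries lay on the same side. Replicate 2 was higher at 22 of 22 GCH sites with dTAG. With DMSO it was higher at 12, lower at 8 and equal at 2. With 2 pairs the numbers are not taken to pair the libraries. A flank of 20 bp held no site on the left, so it gave no value there. Unknown depth and values in steps of 10% limit every site.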
